A study of Mus musculus with 5 samples.

Results

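N6-methyladenosine (m6A) was examined on the mRNAs of 6 DNA methylation and heterochromatin factors, Dnmt3b, Dnmt3l, Dnmt1, Uhrf1, Trim28 and Tet1, in mouse embryonic stem cells (mESCs). They were taken by name, and their positions were those that fell on an exon of the gene on the strand of the call, in the mm10 build with GENCODE M21 exons. Of the 6 genes, 4 had covered positions (Dnmt3b, Dnmt3l, Dnmt1 and Trim28), out of 2742 genes with covered positions in all, and Uhrf1 and Tet1 had 0. The 4 genes held 1127 positions, each on 1 gene. Native polyA RNA was read by nanopore direct RNA sequencing, in which each adenosine of a read is called as m6A, as unmodified or as another modification, or fails the confidence filter. The methylation level of a position is the percent of its valid calls, meaning calls that passed the confidence filter, that were m6A.

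The METTL3 inhibition dataset had 1 library of cells treated with 30 μM STM2457, an inhibitor of the m6A methyltransferase METTL3, for 48 h, and 1 library of cells treated with 0.025% v/v DMSO. Both came from E14 mESCs that carry the reporters 2C::3xtbGFP-PEST and Zscan4::mCherry-PEST, a doxycycline-driven APOBEC1-YTH transgene that was not induced, and a homozygous FKBP12 F36V knock-in at the C-terminus of METTL3, also not induced. The Mettl5 dataset had 1 library each of WT mESCs, Mettl5-KO clone #1 and Mettl5-KO clone #2, the clones lacking the 18S rRNA methyltransferase METTL5. Cells were grown in serum with LIF and maintained with 2i inhibitors. A test between 2 libraries compares those libraries and not the conditions, since only the Mettl5-KO group had more than 1 library, and each KO library is 1 clone.

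DNMT1 copies DNA methylation onto the new strand after replication, and UHRF1 recruits it to hemimethylated DNA. DNMT3B sets DNA methylation de novo, DNMT3L is a catalytically inactive partner that stimulates the de novo enzymes, and TET1 oxidises 5-methylcytosine. TRIM28, also called KAP1, is recruited by zinc finger proteins to retrotransposons and imprinted loci and brings in histone methylation. On mRNA, METTL3 with METTL14 deposits m6A mostly in the DRACH context (D is A, G or U, R is A or G, and H is A, C or U), in long exons and around the stop codon, and less in short internal exons.

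The positions on which the results turn are printed below as 21 nt of the GENCODE M21 transcript, all on the plus strand of mm10, written as DNA with the DRACH 5-mer in capitals, whose middle base is the A that was called. The first 2 carry the highest DRACH levels of any of these genes. The other 6 are those called lower in STM2457 than in DMSO in the test over all DRACH positions.
Dnmt3b, coding, chr2:153686370-153686390: cccttgaaGGACTactttgcc
Dnmt3b, 3′ UTR, chr2:153686401-153686421: tctacccaGGACTggggagct
Dnmt3l, coding, chr10:78063278-78063298: ctggtgaaGAACTgccttctc
Dnmt3l, coding, chr10:78063323-78063343: ttttctcaAAACTcacttcct
Trim28, exon 12, chr7:13029470-13029490: actactgaGGACTacaatctg
Trim28, exon 12, chr7:13029529-13029549: tcaggctgGGACTgtgccacc
Trim28, exon 13, chr7:13029770-13029790: gtgccgagGGACCtcgtctag
Trim28, exon 17, chr7:13030794-13030814: ccaccattGAACCttcccagt

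The libraries held 71574467 valid calls for DMSO, 54051900 for STM2457, 22025887 for WT, and 17897440 and 19532075 for clones #1 and #2, with medians of 45 to 64 valid calls per position. A covered position had at least 25 valid calls in each library of its dataset, and tests used those with more than 25. Of the markers of pluripotent cells, 8 of 8 genes were covered in the METTL3 inhibition dataset and 6 of 8 in the Mettl5 dataset, where Klf4 and Esrrb were not. Markers of endoderm, mesoderm or epiblast were covered in 0 of 5 genes, and those of fibroblasts in 0 of 3, in both datasets. Mettl5 and Mettl3 had 0 covered positions, so the targeted genes gave no check of the labels.

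The member genes differed widely in how much of each mRNA was covered. Trim28 (ENSMUSG00000005566.14, chr7:13024152-13031035, plus strand), a transcript of 3245 nt in 17 exons, was covered along nearly its whole length, with 589 positions or 94.7% of its 622 adenosines in the METTL3 inhibition dataset and 579 in the Mettl5 dataset. Its median numbers of valid calls were 814 for DMSO, 392 for STM2457, 276 for WT, 234 for clone #1 and 267 for clone #2. Dnmt3l (ENSMUSG00000000730.13, chr10:78042287-78063622, plus strand) was covered in its last exon of 436 nt, exon 14, with 100 positions and medians of 515.5 valid calls for DMSO and 281 for STM2457. In the Mettl5 dataset it had 81 positions with medians of 80, 50 and 64 valid calls for WT, clone #1 and clone #2. Dnmt3b (ENSMUSG00000027478.15, chr2:153649453-153687730, plus strand) was covered only in the Mettl5 dataset, with 350 positions in its last exon of 1473 nt, exon 24, and medians of 106, 144 and 163 valid calls for WT, clone #1 and clone #2. Dnmt1 (ENSMUSG00000004099.16, chr9:20907209-20952979, minus strand) was covered only in the METTL3 inhibition dataset, with 88 positions in exons 34 to 37 and medians of 37 and 27 valid calls for DMSO and STM2457. Uhrf1 (ENSMUSG00000001228.14, chromosome 17) and Tet1 (ENSMUSG00000047146.17, chromosome 10) have 73 and 311 DRACH motifs in their annotated transcripts, and their methylation was not analysed here. Coverage depends on how many RNA molecules were read, and in bulk RNA fewer expressing cells and less RNA per cell cannot be told apart.

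Dnmt3b was the only member with DRACH positions at a level of 25% or more, and both lay beside its stop codon. The first GGACT lay 19 nt before the last base of the stop codon, from which all such distances are counted here. Its level was 45.6% in WT (47 of 103 valid calls, exact binomial 95% interval 35.8 to 55.7), 61.3% in clone #1 (84 of 137, 52.6 to 69.5) and 62.0% in clone #2 (98 of 158, 54.0 to 69.6). Both clones were above WT at this position, with intervals that overlapped that of WT. The second GGACT, 12 nt after the stop codon, had 28.4% in WT (31 of 109, 20.2 to 37.9), 31.2% in clone #1 (43 of 138, 23.6 to 39.6) and 26.8% in clone #2 (45 of 168, 20.3 to 34.2). Here too the intervals of the 3 libraries overlapped. These intervals cover counting error only. In each library the coding position was the more methylated of the pair, which lie 31 nt apart.

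The remaining 25 covered DRACH positions of the Dnmt3b last exon, of which 24 were in the 3′ UTR, lay between 0 and 7.27% in every library. Of the 3 DRACH positions within 100 nt of the stop codon 2 were at 25% or more in WT, against 0 of the 24 farther away, which allows a share of up to 12.5%. Across all genes in WT, 14.1% of 2534 DRACH positions within 100 nt of a stop codon were at 25% or more, and 6.75% of 12761 elsewhere. The GGACT 5-mer in the last exon within 100 nt of the stop codon had a median level of 45.6% over 175 positions of all genes in WT, with quartiles of 11.4 and 77.5%, a range that holds both Dnmt3b positions. Another Dnmt3b position at the threshold, 455 nt after the stop codon, was not in a DRACH motif. It had 10.9% in WT (6 of 55), 14.1% in clone #1 (10 of 71) and 25% in clone #2 (23 of 92), and between 46.5 and 52.0% of its calls failed the confidence filter, against a median of 3.74% over the member DRACH positions in WT. The position nearest below the threshold, 153686635, also outside DRACH, had 23.6% in WT, 15.9% in clone #1 and 10.7% in clone #2.

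**Figure D1:**
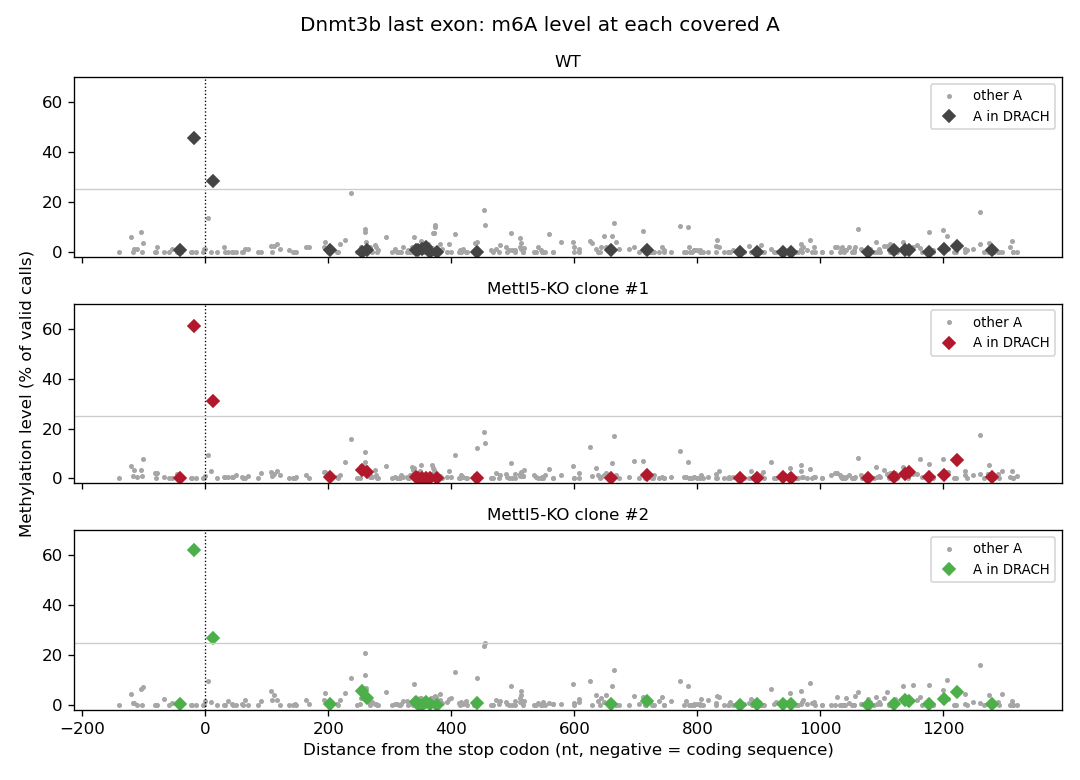
Methylation level (%) of every covered adenosine of the Dnmt3b last exon against its distance from the last base of the stop codon (nt), for WT and both Mettl5-KO clones. Diamonds are DRACH positions, grey points other adenosines, and the grey line is 25%. The 2 DRACH positions beside the stop codon stand at 26.8 to 62.0%, and the 25 others do not exceed 7.27%.

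None of the 3 Dnmt3b sites passed the test between the clones and WT. A site had more than 25 valid calls in every library of its dataset and reached 25% in 1 of them or more, and it was called where the adjusted p was below 0.05 in both clones in the same direction (Fisher's exact test, two-sided, Benjamini-Hochberg over all 1886 sites of all genes). The members had 0 of 3 sites called, with a background of 0.265% of all sites. Before adjustment 46 of the 1886 sites of all genes passed 0.05 in both clones, and of the members 1 of 3 did. That site was the coding GGACT, with p = 0.0185 for clone #1 and 0.0109 for clone #2 in Fisher's exact test, adjusted to 0.499 and 0.343, and a log2 fold change of the level of 0.43 and 0.44. Both clones were compared with the same WT library, and over all sites of all genes the mean level was 46.4% in each clone against 44.0% in WT. Sites could enter through WT or either clone, a choice that favours higher clone means. Over all 15295 DRACH positions, taken at any level, the means were 7.06 and 7.11% in clones #1 and #2 against 6.63% in WT. The median difference from WT was 0 there in each clone. Past a log2 fold change of 1.5 in both clones there were also 0 of 3 member sites, with a background of 1.43%. For the 3′ UTR GGACT the log2 fold changes were 0.13 and -0.09, with adjusted p of 1 in both clones.

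Among the genes with at least 3 sites in the Mettl5 dataset, the 3 whose mean site level was nearest to that of Dnmt3b over WT, clone #1 and clone #2 were Dtymk, Fdx1l and P4hb, at Euclidean distances of 2.02, 3.25 and 4.10 percentage points among 248 genes. Dnmt3b had mean levels over 3 sites of 28.3% (WT), 35.5% (clone #1) and 37.9% (clone #2), and those of Dtymk, which makes dTDP for DNA synthesis, were 28.2, 36.6 and 39.7%. The likeness rests on 3 libraries, and the Dnmt3b mean includes the position outside DRACH. That position had 10.9% in WT and 14.1% in clone #1 and became a site only through its 25% in clone #2. This choice favours a high mean in clone #2, so the order of the clone means is not interpreted.

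Trim28, the deepest read member, had no DRACH position near the 25% threshold. In DMSO 0 of its 49 covered DRACH positions were at 25% or more, which allows a share of up to 6.12%, and the highest was 8.82%. Of the 49, 38 were under 1%, 4 were at 2% or more and 7 had no m6A call at all. Its mean DRACH level was 0.866% in DMSO, at the 5.41 percentile of 684 genes with at least 20 covered DRACH positions, whose median was 9.06%. In WT its mean was 0.770%, at the 7.17 percentile of 279 genes with a median of 4.59%. Of those 684 genes 16.7% likewise lacked a DRACH position at 25% in DMSO. The depth of Trim28, a median of 856 valid calls over its DRACH positions, was reached by only 12 of those genes.

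The few Trim28 positions above this floor were lower in STM2457. The GAACC of exon 17, the last exon, 58 nt before the stop codon, had 8.82% in DMSO (78 of 884 valid calls, interval 7.04 to 10.9) and 0.855% in STM2457 (4 of 468, 0.233 to 2.17). It had 4.50% in WT, 4.55% in clone #1 and 5.42% in clone #2, so every library without the inhibitor was above STM2457. In exon 12, of 253 nt, the first GGACT had 7.69% in DMSO (67 of 871) and 0.714% in STM2457 (3 of 420), and 3.05, 4.71 and 5.70% in WT, clone #1 and clone #2. The second GGACT of exon 12 had 3.93% in DMSO (35 of 890) and 0.693% in STM2457 (3 of 433), and 2.65, 1.93 and 2.92% in WT, clone #1 and clone #2. The GGACC of exon 13 had 1.95% in DMSO (18 of 922) and 0.221% in STM2457 (1 of 452), and 0.643, 0.766 and 0.935% in WT, clone #1 and clone #2. These levels were 90.3, 90.7, 82.4 and 88.7% lower in STM2457, in the order given. The adjusted p over all 38759 DRACH positions of all genes was 1.67e-09, 8.17e-08, 0.0042 and 0.0355 (Fisher's exact test, two-sided, Benjamini-Hochberg). The remaining position at 2% or more, a TGACT of exon 13, had 2.91% in DMSO and 2.02% in STM2457 and was not called.

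**Figure D2:**
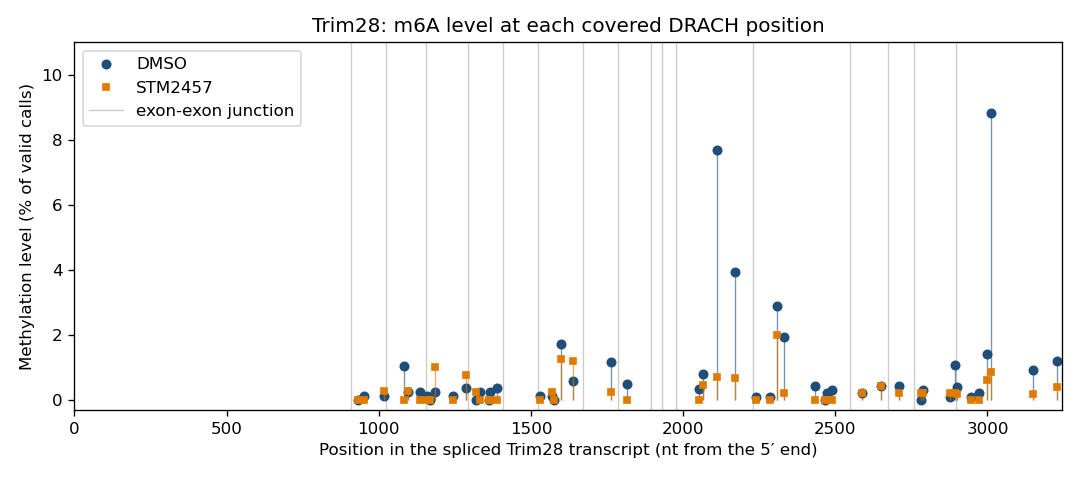
Methylation level (%) of the 49 covered DRACH positions of Trim28 against their position in the spliced transcript (nt), for DMSO (circles) and STM2457 (squares); vertical lines are exon-exon junctions. In DMSO 38 positions lie under 1% and the highest is 8.82%, while the highest in STM2457 is 2.02%.

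Dnmt3l also had DRACH positions that were lower in STM2457, at low levels and close to its stop codon. The AAACT 16 nt before the stop codon had 5.25% in DMSO (24 of 457, interval 3.39 to 7.71) and 0% in STM2457 (0 of 246, which allows a level of up to 1.22%). The GAACT 61 nt before the stop codon had 4.38% in DMSO (23 of 525, 2.80 to 6.5) and 0.351% in STM2457 (1 of 285). Their adjusted p were 0.000302 and 0.0047 in the same test. The AAACT had 7.25, 2.33 and 8.77% in WT, clone #1 and clone #2, and the GAACT 7.14, 3.85 and 3.23%, from 43 to 84 valid calls each, and their intervals overlapped with each other. A GAACC in the 3′ UTR, 36 nt after the stop codon, went from 1.70% (9 of 530) to 0% (0 of 295), which did not pass (Fisher's exact test, p = 0.0305, adjusted to 0.137). The highest DRACH level of Dnmt3l in DMSO was 5.25%, and 0 of its 7 covered DRACH positions were at 25% or more, a share with an exact upper bound of 41.0%. Its mean DRACH level in DMSO of 1.98% stood at the 18.3 percentile of 2186 genes with at least 5 covered DRACH positions.

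**Figure D3:**
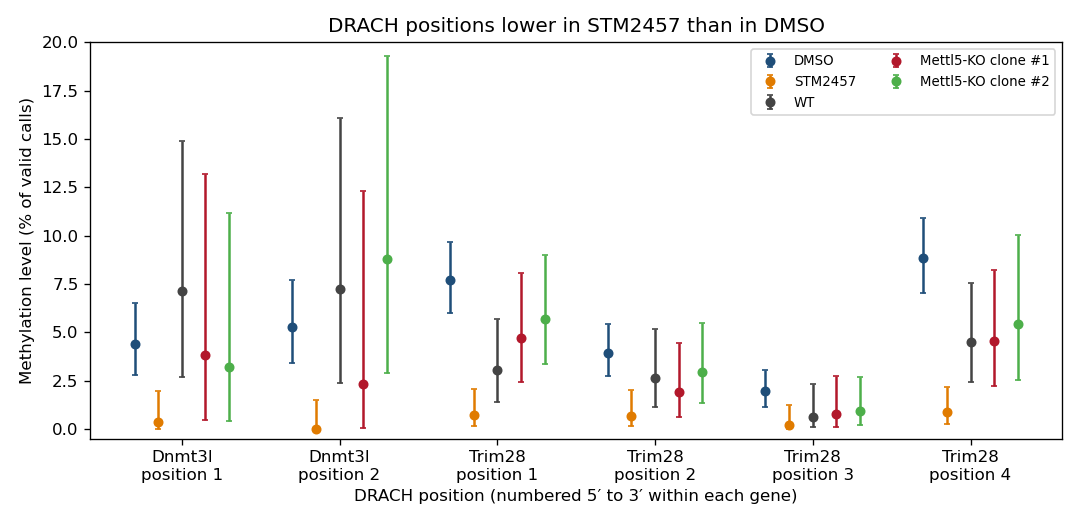
Methylation level (%) with exact binomial 95% interval of the 6 DRACH positions called lower in STM2457 than in DMSO. All 5 libraries are shown, in 5′ to 3′ order of the positions within Dnmt3l and Trim28. The STM2457 levels lie between 0 and 0.855%, and the DMSO levels between 1.95 and 8.82%.

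In all, 60 DRACH positions of Trim28, Dnmt3l and Dnmt1 were tested between STM2457 and DMSO, and 6 were called lower and 0 higher. The background over all genes was 19.3% of 38759 positions called lower and 0.00258% called higher, and by gene the members had 4 of 49 for Trim28, 2 of 7 for Dnmt3l and 0 of 4 for Dnmt1. Of the 60, 38 had a lower level in STM2457, 11 a higher one and 11 no m6A call in either library. An unadjusted p below 0.05 was found for 7 of the 60 and for 9207 of the 38759 over all genes. Among DRACH positions with a DMSO level of 2 to under 10%, 5 of 7 in the members and 8.07% of 8314 over all genes were called lower. The band was set by the DMSO level itself. The mean level in it fell from 5.05% in DMSO to 0.756% in STM2457 in the members and from 4.60 to 0.782% over all genes, but the median depth was 824 valid calls in the members and 61 over all genes. The part of depth in the shares called was not tested.

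The calls were also summed over positions. The summed DRACH level of Trim28 was 0.876% in DMSO (370 of 42259 valid calls) and 0.279% in STM2457 (58 of 20753), a decrease of 68.1%. For Dnmt3l it was 1.94% in DMSO (70 of 3610) and 0.254% in STM2457 (5 of 1969), a decrease of 86.9%, and over all genes 7.24 and 1.89%, a decrease of 73.9%. The adenosines outside DRACH moved less, from 0.862 to 0.846% in Trim28, from 0.899 to 0.797% in Dnmt3l and from 0.927 to 0.806% over all genes. In Trim28 the DRACH positions in DMSO were thus at nearly the same summed level as its other adenosines, and in STM2457 below them. Dnmt1 had 0 m6A calls at its 4 DRACH positions with more than 25 valid calls, of 156 valid calls in DMSO and 116 in STM2457, which allows levels of up to 1.92 and 2.59%. Its other adenosines were at 0.962% in DMSO and 0.994% in STM2457, and its shallow coverage of 4 of 39 exons does not speak for the rest of the mRNA.

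Only 1 member position of the METTL3 inhibition dataset met the 25% threshold in either library. It was outside DRACH and met the threshold only in STM2457, so it could not have been lower there than in DMSO. This ATATG in exon 10 of Trim28, an exon of 37 nt, at chr7:13029110, had 22.6% in DMSO (127 of 562), 27.8% in STM2457 (76 of 273), 14.7% in WT (34 of 232), 13.4% in clone #1 (25 of 187) and 15.96% in clone #2 (34 of 213). It was the 1 member site among 6201 sites of all genes, of which 91.5% were called lower and 0.323% higher in STM2457. Of the 6201 sites 6096 were at 25% or more in DMSO, which this position was not. Its own adjusted p was 0.109 (Fisher's exact test, Benjamini-Hochberg). Of its calls in DMSO 35.0% failed the confidence filter. More widely, the 9 adenosines outside DRACH at 10% or more in DMSO had a median of 28.1% failed calls, against 5.67% over all 777 member positions and 3.66% over the member DRACH positions, and the part of failed calls in their levels was not tested.

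Most of the covered member DRACH positions lay in short internal exons of Trim28. In DMSO 14.2% of all covered DRACH positions were at 25% or more, against 0 of 60 in the members, which allows up to 5.0%. In coding exons under 400 nt other than the last, that share was 0.617% of 8752 positions over all genes, against 22.2% in such exons of 400 nt or more, 17.3% in the coding part of last exons and 18.8% in the 3′ UTR of last exons. Of the 49 Trim28 positions 42 lay in coding exons of the first of these classes, where their mean level of 0.698% compares with 1.17% over all genes. The first exon of Trim28 is 910 nt long and was covered at 67 positions with more than 25 valid calls, but holds only 1 DRACH motif, and the longest of its 15 internal exons is 320 nt.

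The 2 highest Trim28 DRACH levels in DMSO lay 115 nt from an exon-exon junction, and the next 2 lay at 56 and 81 nt. Of the 49, 42 (85.7%) lay under 100 nt from a junction, against a median of 20.8% per gene over the 684 genes, and had a mean level of 0.475% in DMSO. The 7 at 100 nt or more had a mean of 3.21%, and 3 of the 4 called positions were among them. That mean rests on the 2 positions at 115 nt, with 7.69 and 8.82%, and the rest of the 7 had 0.430 to 1.95%. In WT the means of the same positions were 0.526 and 2.24%. Over all genes in DMSO, 2.05% of DRACH positions under 100 nt from a junction and 20.3% of those at 100 nt or more were at 25% or more. Within coding exons under 400 nt other than the last, the mean over all genes was 0.968% under 100 nt from a junction (8336 positions) and 5.29% at 100 nt or more (416 positions). The 2 GGACT positions of Trim28, at 115 and 56 nt from a junction, with 7.69 and 3.93%, compare with a median of 1.90% and an upper quartile of 5.20% over 508 GGACT positions in such exons, and with a median of 31.4% over all 2471 GGACT positions. The Trim28 position farthest from a junction, an AAACT at 330 nt in its 3′ UTR, had 1.22%.

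**Figure D4:**
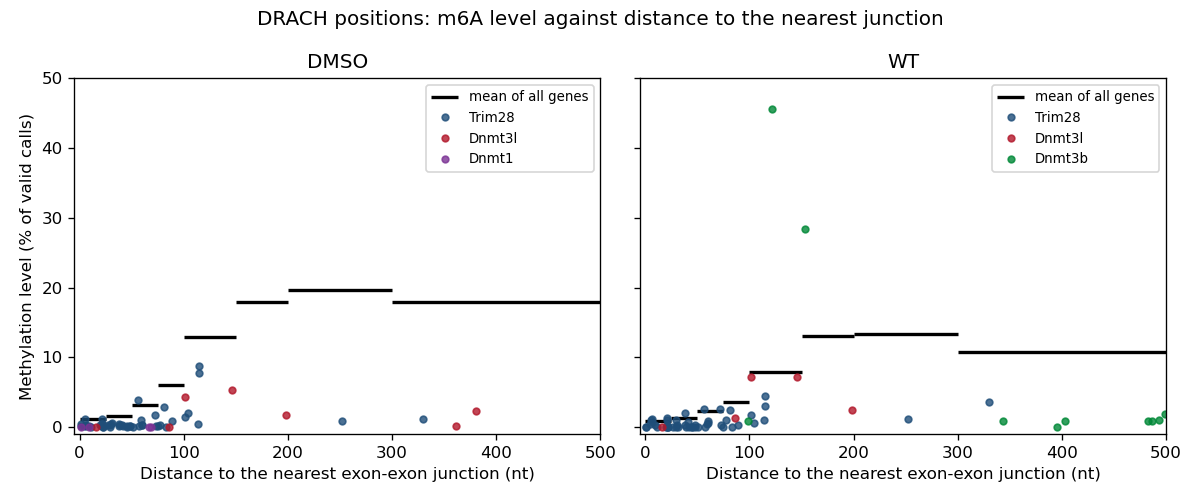
Methylation level (%) of the member DRACH positions within 500 nt of a junction against distance to the nearest exon-exon junction (nt), in DMSO and WT; horizontal bars are means over all genes in each distance bin. The all-gene mean rises from 1.15% under 25 nt to 19.6% at 200 to 300 nt in DMSO, most Trim28 points lie under 100 nt, and the 2 high Dnmt3b points in WT lie beyond 100 nt.

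No member DRACH position was called between the Mettl5-KO clones and WT. Of 81 positions 0 passed in both clones, with a background of 0.00654% of 15295 positions. By Fisher's exact test 186 of the 15295 had an unadjusted p below 0.05 in clone #1 and 243 in clone #2. Among the 81 member positions it was 1 in clone #1 and 2 in clone #2, all in Dnmt3b. The 1 not yet described was an AAACT 254 nt after the stop codon, with 0% in WT (0 of 110), 3.45% in clone #1 (5 of 145) and 5.59% in clone #2 (9 of 161). Summed over DRACH positions, Trim28 stood at 0.778% for WT, 0.859% for clone #1 and 0.768% for clone #2, and that of Dnmt3b 3.22, 4.11 and 4.25%. For Dnmt3l it was 3.50% (14 of 400), 1.61% (4 of 249) and 2.51% (8 of 319). Over all genes it was 4.82, 5.18 and 5.07%, and at 25% or more were 2 of 81 member positions (2.47%) and 7.98% of all positions in WT.

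Between WT and DMSO, which differ in line, dataset and treatment so that these cannot be told apart, 54 DRACH positions of Trim28 and Dnmt3l could be compared. By Fisher's exact test 0 were called, with a background of 0.596% of 12745 positions (0.486% lower and 0.11% higher in WT). Over all genes 710 of the 12745 had an unadjusted p below 0.05, and of the 54 it was 4, all in Trim28. Of these 4 the exon 12 GGACT (7.69% in DMSO, 3.05% in WT) and the exon 17 GAACC (8.82% in DMSO, 4.50% in WT) were lower in WT. An AAACT 16 nt from the 3′ end (1.22% in DMSO, 3.57% in WT) and a GAACC of exon 15 (0.434% in DMSO, 1.98% in WT) were higher in WT. No position of Trim28 or Dnmt3l reached 25% in WT or DMSO, and Dnmt3b was not covered in DMSO, so no member site was compared, where 15% of 1577 sites over all genes were called.

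Reads over the members also differed in number between the libraries. The median over Trim28 positions was 884 reads in DMSO and 427 in STM2457, a ratio of 0.483, and the ratio over Dnmt3l was 0.541. Over 828 genes the median ratio was 0.711, with 0.453 and 1.15 as the 5 and 95 percentiles, so both ratios were in the lower part of that range, at the 8.21 and 14.5 percentiles. Reads over Dnmt3b numbered 116 for WT against 160 for clone #1 and 182.5 for clone #2, ratios of 1.38 and 1.57, at the 97.8 and 95.6 percentiles of 183 genes with medians of 0.838 and 0.913. Trim28 had 303, 253 and 291 reads in these libraries, near the median ratio. With 1 library per condition these ratios have no test, and they are not corrected for the size of the libraries beyond the comparison with all genes. Many genes had fewer reads near their 3′ end in clone #2, as given next. The part of this in the rank of Dnmt3b in clone #2 was not tested.

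Clone #2 stood apart at the 3′ ends. The number of reads over the last 100 nt of Trim28 was 0.205 of that at 400 to 600 nt from its end in clone #2 (69 against 336 reads), while the ratio was 1.03 in DMSO, 1.11 in STM2457, 1.03 in WT and 0.910 in clone #1. Over all genes the median ratio was 0.330 in clone #2 (71 genes), 0.934 in clone #1, 1.03 in WT, 1.03 in DMSO and 1.07 in STM2457. The last Trim28 position, 3 nt from the end, had 54 reads in clone #2 against 260 in WT and 178 in clone #1. In Dnmt3l at 77 nt from the end there were 87 reads for WT, 51 for clone #1 and 32 for clone #2, and 69 in clone #2 by 126 nt. Dnmt3b had 43 reads in clone #2 at 11 nt, 172 at 40 nt and 193 at 500 nt. Its ratio over the last 100 nt was 0.959 in clone #2, so Dnmt3b lost few reads there beyond its last positions. The 2 GGACT positions of Dnmt3b lie 1350 and 1319 nt from the end, outside this stretch. The part of these read numbers in the levels of clone #2 was not tested.

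**Figure D5:**
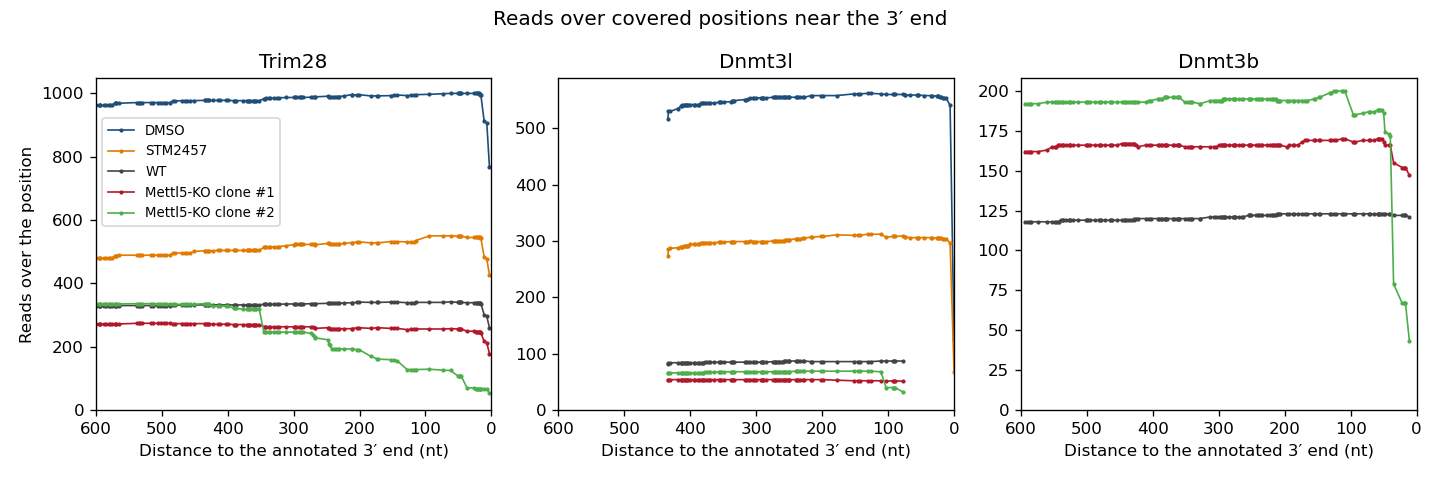
Reads over covered positions of Trim28, Dnmt3l and Dnmt3b against distance to the annotated 3′ end (nt), 1 line per library. In clone #2 the Trim28 line falls from 336 reads at 501 nt to 54 at 3 nt, while the other libraries stay nearly level until the last positions.

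Other genes of these pathways held positions well above the threshold. Of a list of 42 other DNA methylation and heterochromatin genes, 15 were covered in the METTL3 inhibition dataset and 9 had sites, 47 in all. Of these 46 were called lower in STM2457 and 0 higher, beside a background of 91.5%, with a mean decrease of 73.6% against 74.7% over all genes. At DRACH positions 43 of 231 (18.6%) were at 25% or more in DMSO, against 14.2% over all genes. Of the 46 sites at 25% or more in DMSO, 20 were in the coding part of a last exon and 16 in the 3′ UTR. Another 10 were in coding exons of 400 nt or more, and 0 in shorter ones. These counts are not shares of the covered positions of each class. Over all genes 0.617% of DRACH positions in the shorter coding exons other than the last were at that level.

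By role, Zfp57, a zinc finger protein that brings TRIM28 to imprinted loci, had 10 such sites in its last coding exon with a mean level of 62.6% in DMSO and 28.3% in STM2457. Daxx, a histone H3.3 chaperone, had 8 in a long internal exon with 64.3 and 22.4%. The chromatin assembly subunits Chaf1a and Chaf1b had 5 sites with 64.4 and 18.8%, and 2 with 64.9 and 13.8%. Mbd3, of the NuRD repressor complex, had 6 in its 3′ UTR with 57.1 and 11.8%, and the histone deacetylase Hdac2 1 with 72.4 and 15.2%. Kmt5c, an H4K20 methyltransferase, had 6 with 50.3 and 11.7%, Usp7, a deubiquitinase that binds UHRF1 and DNMT1, 1 with 47.5 and 14.8%, and Zfp42, also a pluripotency marker, 7 with 59.7 and 15.7%. The genes covered in the METTL3 inhibition dataset without a site there were Lig1, Cbx1, Cbx5, Ehmt2, Smarcad1 and Kdm1a. In the Mettl5 dataset 7 genes of the list were covered and held 17 sites, of which 0 were called in both clones by Fisher's exact test. The background was 0.265% of 1886 sites, too low for a call to be likely among 17.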

How the data were processed

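Per the methods, the authors separated barcodes with WarpDemuX, used dorado for basecalling, modification calling and alignment to mm10, and summarised read counts per position with modkit. The deposited counts are valid, m6A, unmodified, other-modification and failed calls, not normalized, and the deposited percent is 100 times m6A over valid calls. Failed calls are left out of that percent, and sequencing from the poly(A) tail favours 3′ ends and abundant mRNAs.

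From these counts, positions were assigned to GENCODE M21 exons by strand, and place, junction distance and 5-mer came from 1 transcript per gene (best APPRIS tag, then support level, then length), in which 99.8% of positions were A. Junctions within 100 nt and exons of 400 nt set the classes, and distances from a stop codon were counted from its last base. Levels were compared by a two-sided Fisher's exact test, with p adjusted by Benjamini-Hochberg over all genes (Python 3.11.15, numba 0.67.0, pandas 2.3.3, scipy 1.17.1). On simulated data for STM2457 against DMSO over 38759 DRACH positions, 38559 were left unchanged, and 0 of these were called. Of 100 positions lowered 5-fold 60% were called, and of 100 lowered 2-fold 15%. In the data 7485 of the 38759 were called lower, so the adjustment was stricter in the simulation. The shares were not computed at the levels and depth of the members, whose DRACH levels in DMSO did not exceed 8.82%. They therefore do not give the share of lowered member positions that the test would call.

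The members and lists were chosen with earlier results of these data known. Testing every DRACH position was added after the members were seen to have no site at 25% in DMSO. The genes named were the members with their sites, list genes with a site, and the 3 genes nearest in mean site level. The positions named below 25% were chosen after their values were seen. Alternatives were other coverage and level thresholds, failed calls as unmodified, RefSeq-linked exons, DRACH only, sites selected in WT, a stricter adjusted p, a log2 fold change of 1.5 and each clone left out. The libraries are labelled as separate samples with no statement of separate cultures, so p-values measure only the spread in reads.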

Additional observations from a re-analysis of the deposited data

Results flagged for a closer look

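Calls of another modification than m6A, inosine or 2′-O-methyladenosine, were not part of the comparisons above. For each member the position with the highest share of such calls was taken in DMSO and in WT. It was reported where it exceeded the limit that a count of 0 allows. Of the 6 positions 5 did, and that of Dnmt1 (2.78% in DMSO, with a limit of 8.33%) did not. Each was picked as the highest of all covered positions of its gene and was thus likely to pass, so passing the limit is not a test. At 13024544 in the 5′ UTR of Trim28 these calls made up 8.80% of valid calls in DMSO (44 of 500), 11.3% in STM2457, 20.8% in WT, 17.4% in clone #1 and 12.9% in clone #2. At 13030973 in the 3′ UTR of Trim28 they made up 24.6% in WT (52 of 211), 20.3% in clone #1 and 18.3% in clone #2, but 5.25% in DMSO and 3.18% in STM2457. At 153687024 in the 3′ UTR of Dnmt3b they made up 19.1% in WT (13 of 68), 10.2% in clone #1 and 15.9% in clone #2. Dnmt3l had 8.67% at 78063362 in DMSO (26 of 300) and 8.77% at 78063321 in WT (5 of 57). In WT 6 of 579 positions of Trim28 and 4 of 350 of Dnmt3b were at 10% or more, and in DMSO 0 member positions were. The same share over all genes was not computed. Of the calls 33.5% (Trim28, DMSO), 37.9% (Trim28, WT), 39.8% (Dnmt3b), 45.3% (Dnmt3l, DMSO) and 32.9% (Dnmt3l, WT) failed the confidence filter at these positions, and the part of failed calls in these values was not tested.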

How the results depend on the processing

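The 6 member DRACH positions called lower in STM2457 stayed 6 with a coverage of at least 25 or 50, failed calls as unmodified and RefSeq-linked exons. At an adjusted p below 0.01 they were 5. The member sites called in STM2457 or in both clones were 0 under every alternative that left sites, also with either clone left out (0 each). Between WT and DMSO no member site existed at 25%. At a threshold of 10%, 7 of 13 were called, all outside DRACH in Trim28, 6 higher and 1 lower in WT, against 13.4% of 5274 sites over all genes. The 6 called higher had 3.54 to 6.17% in DMSO and reached 10% only in WT. The 1 called lower reached it only in DMSO, with 15.5% against 8.02% in WT. The choice of sites thus favoured a difference in the direction found. Trim28 was read far deeper, with a median of 814 valid calls in DMSO against 64 over all positions. At the 13 positions 10.8 to 44.8% of calls in DMSO failed the confidence filter. The part of depth and of failed calls in this share was not tested. The list sites lower in STM2457 numbered 46, and 25 of 26 at a coverage of at least 50, 28 of 28 at a threshold of 50% and 13 of 15 when selected in WT, settings that leave fewer sites to test. The share of member DRACH positions at the threshold in WT was 2.47% and became 0% at 50%.

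With 0 member sites at 25% in DMSO, the mean relative decrease and the share of sites in the last exon had no value, and neither did the sites lower in STM2457 at a threshold of 50%, with failed calls as unmodified, in DRACH only or selected in WT. At 10% or more in DMSO there were 9 sites, 0 in DRACH, with a mean relative decrease of 27.6% and 2 in a last exon. That mean rests on 3 Dnmt1 positions with 3 or 4 m6A calls in DMSO and 0 in STM2457. Over the other 6, of Trim28 and Dnmt3l, it was -8.64%, with 5 higher in STM2457. Choosing sites by their DMSO level favours a decrease, and it left out a Dnmt1 position with 2.56% in DMSO and 10% in STM2457. No paired analysis was possible because DMSO, STM2457 and WT have 1 library each. Depth limits Dnmt1 most, with medians of 37 and 27 valid calls.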
